A study of Mus musculus with 2 samples.

Results

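The genes examined here encode the enzymes that release fatty acids from stored and circulating triglyceride and the protein that moves phospholipid between plasma lipoproteins. There were 10 members, chosen by gene symbol: Pnpla2, Abhd5, G0s2, Lipe and Mgll of lipid droplet lipolysis, the endoplasmic reticulum hydrolase Aadac, the plasma lipases Lpl, Lipc and Lipg, and the phospholipid transfer protein Pltp. Of the 18193 genes with a probe set on the array, 9 were members, represented by 20 probe sets; Lipc was not analysed here. RNA was taken from whole liver of male mice homozygous for the floxed allele, without Cre (Lpcat3fl/fl, control) or with the Albumin-Cre transgene (Lpcat3fl/fl Albumin-Cre, L-Lpcat3 KO), so both groups carried loxP sites at Lpcat3. Albumin-Cre acts in hepatocytes. The study names Kupffer and endothelial cells as lacking the transgene's expression and as the likely source of the remaining Lpcat3 mRNA. All mice ate a western diet for 9 weeks from 7 weeks of age, were 16 weeks old, and were fasted for 6 hr before the liver was taken. RNA of 5 mice was pooled for each genotype and each pool was put on 1 Affymetrix array, so the comparison has no replicates, no test was made between genotypes, and the number of arrays limits the precision. The study used these arrays to ask how loss of Lpcat3 changes hepatic gene expression.

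Triglyceride in the droplets of hepatocytes is hydrolysed in steps. Adipose triglyceride lipase, the product of Pnpla2, removes the first fatty acid, with ABHD5 as its activator and G0S2 as its inhibitor; hormone-sensitive lipase (Lipe) acts mainly on diacylglycerol and monoglyceride lipase (Mgll) completes the release. On vessel walls, lipoprotein lipase, hepatic lipase and endothelial lipase hydrolyse the triglyceride and phospholipid of lipoproteins, and PLTP carries the released surface phospholipid to HDL. Pltp and Lpl, like Lpcat3, are known targets of the nuclear receptor LXR.

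The values are MAS5 signal intensities on a linear scale, in arbitrary units. The median of all values, 86.6, served as a floor for lower signals. Each gene was read from its brightest probe set by mean log2 signal, here its main probe set, and was measured if that probe set came up to the floor in either pool. This left 12290 measured genes. The trimmed mean was 500 on both arrays. The 3' to 5' ratio of Gapdh was 0.81 for control and 0.822 for L-Lpcat3 KO, and that of Actb 2.28 for both. The signal of Lpcat3 was 5173 in the control pool and 2198 in the L-Lpcat3 KO pool, a log2 ratio of -1.23 on its only measured probe set, whose position against the floxed part of the gene was not checked here. Among probe sets of the same gene above the floor on both arrays, log2 ratios had a pooled SD of 0.29 over 4476 genes, and of 0.19 over the 1880 genes with at least 2 such probe sets at a mean signal of 500 or more. This is the only spread the arrays hold, and it does not include differences between mice. It describes single probe sets about the mean of their gene, and a difference between 2 probe sets has a wider spread.

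Lpl and Pltp were the 2 members at least 2-fold higher in liver of L-Lpcat3 KO mice, and 0 members were at least 2-fold lower. All 9 members with a probe set were measured. The 2-fold threshold was passed upward by 2.70% of measured genes and downward by 0.700%. Among the 6466 genes with a mean signal of 500 or more, 1.35% were at least 2-fold higher. When each array was instead centred on its median, which shifted the median log2 ratio of all measured genes from 0.01 to -0.10, 235 genes were higher and 128 lower, against 332 and 86 with the deposited scaling. Lpl and Pltp were also the 2 members at least 1.5-fold higher, a difference reached by 9.07% of measured genes, and 0 members were 1.5-fold lower, where 3.83% of genes were. None of the 9 members was 3-fold higher, as 0.448% of genes were. Over the 9 members the median log2 ratio was 0.32, beside 0.01 for all measured genes. The other 7 members lay between -0.06 and 0.53, with a median of 0.18. Both Lpl and Pltp appear in the lipid metabolism panel that the study drew from these arrays, so their direction is not independent evidence. The study also measured a number of its array genes by real-time PCR, and it reported higher Pltp on separate arrays of chow-fed mice. Those data were not analysed here.

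**Figure D1:**
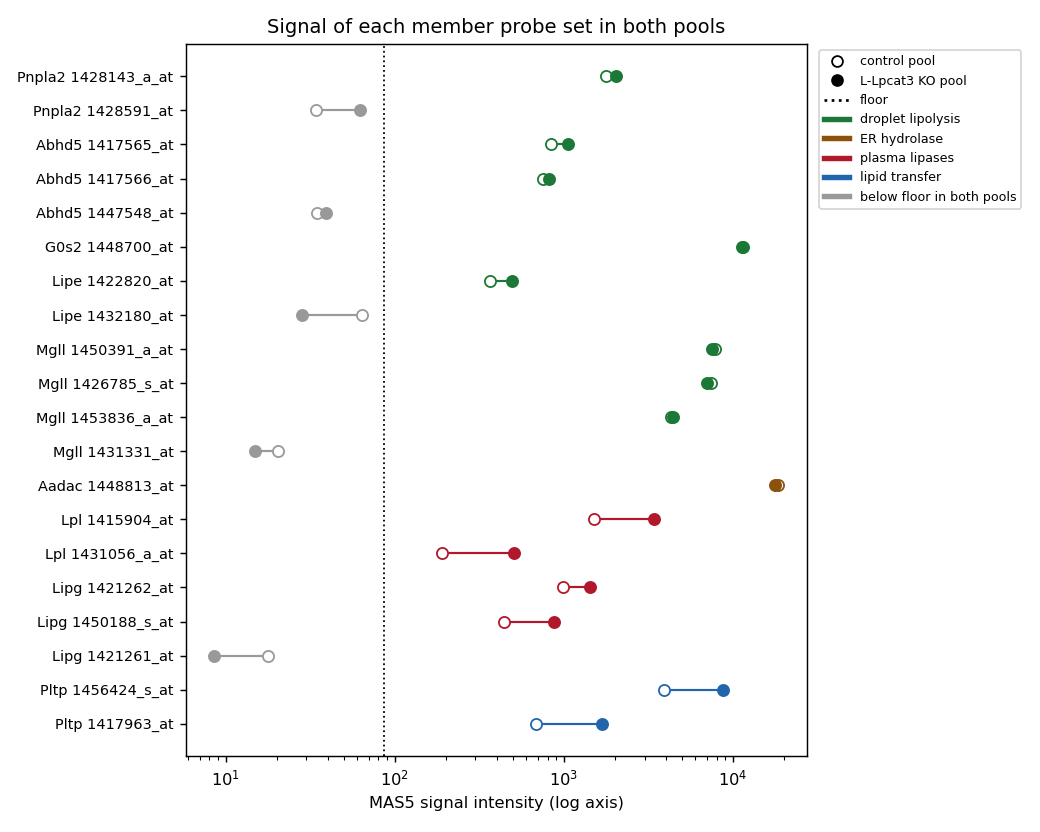
MAS5 signal intensity, on a log axis, of each of the 20 member probe sets in the control pool (open circles) and the L-Lpcat3 KO pool (filled circles), coloured by role; the dotted line is the floor of 86.6 and grey probe sets lay below it in both pools. The pools are well apart for Lpl and Pltp, whereas the circles of G0s2, Mgll and Aadac nearly coincide.

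Of the 20 probe sets, 15 were measured, all of them above the floor on both arrays, and 5 lay below it on both. Of the 15, 4 passed 2-fold upward and 0 passed it downward, beside 2.36% and 0.791% of all measured probe sets. The 4 were both probe sets of Lpl and both of Pltp. A log2 ratio above 0 was found for 12 of the 15, which include values as small as 0.02 for G0s2 and 0.03 for a probe set of Mgll. The share of all measured probe sets above 0 was not counted, so no trend is read from this. Signals of different probe sets depend on their probes and were not compared with each other.

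Lpl encodes lipoprotein lipase, which frees fatty acids from the triglyceride of circulating lipoproteins and is made mainly by adipocytes, muscle and macrophages, and little by adult hepatocytes. Its main probe set, 1415904_at, had a signal of 1506 in the control pool and 3396 in the L-Lpcat3 KO pool, a 2.26-fold difference. The second probe set, 1431056_a_at, had 189 and 508, a 2.69-fold difference. The log2 ratios of 1.17 and 1.43 were thus both above the threshold and differed from each other by 0.25. By its main ratio Lpl was gene 204 from the top of the 12290 measured, and 2.02% of measured genes differed as much in either direction. In bulk tissue a different number of cells of a type and a different amount of RNA per cell cannot be told apart, which holds for each ratio given here.

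Pltp encodes the phospholipid transfer protein, which remodels HDL and is made by hepatocytes and macrophages among other cells. The control pool had 3907 and the L-Lpcat3 KO pool 8703 on 1456424_s_at, a 2.23-fold difference. On 1417963_at the signals were 688 and 1680, a 2.44-fold difference. Both probe sets were higher in the L-Lpcat3 KO pool, with log2 ratios of 1.16 and 1.29. By its name the first may match more than 1 transcript, whereas the second, which is free of this, gave the higher ratio. Pltp was gene 213 from the top, and 2.11% of measured genes differed at least as much.

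**Figure D2:**
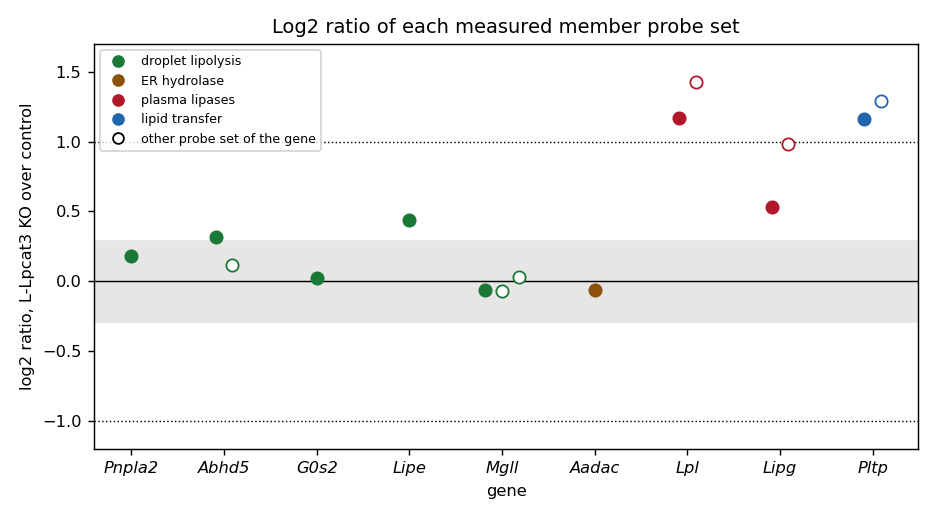
Log2 ratio (L-Lpcat3 KO pool to control pool) for the 15 measured probe sets of the 9 members; filled points are main probe sets and open points the others, the grey band is the pooled SD of 0.29 between probe sets of a gene, and dotted lines mark 2-fold. Lpl and Pltp lie above 2-fold on every probe set, Lipg on neither, with 0.98 on its second, and the genes of droplet lipolysis lie between -0.07 and 0.44.

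Lipg encodes endothelial lipase, a phospholipase that acts on HDL and is made by endothelial cells and other cells of the liver. The control pool had 984 and the L-Lpcat3 KO pool 1423 on 1421262_at, a 1.45-fold difference. On 1450188_s_at it was 443 and 872, a 1.97-fold difference. Both probe sets were higher in L-Lpcat3 KO without reaching 2-fold, and their log2 ratios of 0.53 and 0.98 differed by 0.44. The pooled SD of 0.29 describes single probe sets, and a difference between 2 of them has a wider spread, so 0.44 was not judged by it. The main log2 ratio of Lpl exceeded that of Lipg by 0.64. The third probe set of Lipg lay below the floor in both pools.

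The genes of droplet lipolysis, 5 in all, differed little between the genotypes, with a median log2 ratio of 0.18. Pnpla2, the gene of the lipase that starts triglyceride breakdown, was at 1783 in the control pool and 2026 in the L-Lpcat3 KO pool, a log2 ratio of 0.18 that 54% of the measured genes equalled or exceeded in size. Abhd5, whose product activates that lipase, had 843 and 1053 on its main probe set and 748 and 815 on the next, with log2 ratios of 0.32 and 0.12. G0s2, the gene of the inhibitor, was at 11336 and 11529, a log2 ratio of 0.02 that became -0.09 when arrays were centred on the median. The log2 ratio of the activator thus exceeded that of the inhibitor by 0.30, and that of the lipase exceeded it by 0.16. The pooled SD between probe sets of a gene does not measure a spread between genes, so the size of these differences was not judged by it.

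Lipe, encoding hormone-sensitive lipase, had the largest difference among the genes of droplet lipolysis. The control pool had 364 and the L-Lpcat3 KO pool 493 on its only measured probe set, a 1.35-fold difference and a log2 ratio of 0.44. A difference of this size or more was found for 21.3% of measured genes. Adipocytes are rich in Lipe mRNA.

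Mgll, encoding monoglyceride lipase, had 3 measured probe sets, all close to equal between the pools. The signals were 7842 and 7540 on 1450391_a_at, 7366 and 7028 on 1426785_s_at, and 4317 and 4394 on 1453836_a_at, for control and L-Lpcat3 KO. The log2 ratios ran from -0.07 to 0.03. Aadac, encoding arylacetamide deacetylase, a serine hydrolase of the endoplasmic reticulum of hepatocytes, was at 18548 and 17825. Its log2 ratio of -0.06 became 0.03 with quantile normalization or loess. Differences at least as large as those of Mgll and Aadac were found for 84.7% and 84.5% of measured genes.

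**Figure D3:**
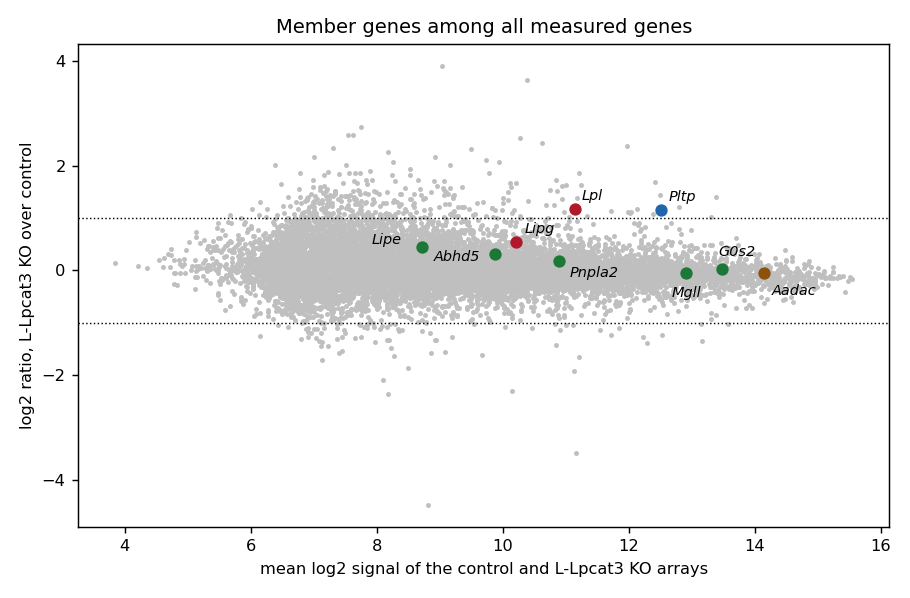
Log2 ratio (L-Lpcat3 KO pool to control pool) against the mean log2 signal of both arrays for the 12290 measured genes (grey), with the 9 measured members in the colours of their roles; dotted lines mark 2-fold. Lpl and Pltp stand above the upper line, and the other 7 members lie inside the cloud. Of all genes with a mean signal of 500 or more, 1.35% reach the upper line.

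The promoter windows of Pltp, higher on both probe sets, and of Pnpla2, which differed little, are printed so that a gene past 2-fold and a gene near 0 can be read side by side. Windows run from 250 bases before to 50 after the annotated start, 5' to 3' on the strand of the gene, from RefSeq on GRCm38.p6. The table of windows used here covered 8 of the 10 members with 11 windows; those of Lpl and Lipg were not analysed here. Capitals mark matches on either strand to 5 motifs. AGGTCA is the core element bound by nuclear receptors such as LXR and the PPARs. The TATA box was searched as TATAAA. The GC box, bound by SP1, was searched as GGGCGG. The CCAAT box was searched by those letters. The E-box of SREBP and ChREBP was searched as CACGTG. No matches overlapped in the windows printed. The Pltp window lies on the minus strand at chr2:164857659-164857958 and the Pnpla2 window on the plus strand at chr7:141454938-141455237.
Pltp: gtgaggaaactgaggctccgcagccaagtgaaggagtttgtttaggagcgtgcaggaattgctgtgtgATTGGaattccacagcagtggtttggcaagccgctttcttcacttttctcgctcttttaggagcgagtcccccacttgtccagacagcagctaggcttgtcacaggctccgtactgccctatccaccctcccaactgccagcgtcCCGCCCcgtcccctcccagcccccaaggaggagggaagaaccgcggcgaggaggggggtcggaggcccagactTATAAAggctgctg
Pnpla2: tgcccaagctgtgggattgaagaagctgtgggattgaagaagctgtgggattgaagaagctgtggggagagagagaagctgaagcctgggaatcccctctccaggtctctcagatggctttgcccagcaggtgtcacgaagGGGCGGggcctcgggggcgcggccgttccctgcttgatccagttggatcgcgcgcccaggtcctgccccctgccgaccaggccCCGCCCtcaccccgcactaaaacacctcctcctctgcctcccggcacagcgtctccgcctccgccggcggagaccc
In the Pltp window the matches were CCAAT at -182, GGGCGG at -37, both read on the other strand, and TATAAA at 36, counted from the annotated start as 0. In the Pnpla2 window GGGCGG was found at -109 and, on the other strand, at -26. AGGTCA was in neither window. It was in 2 of the 11 member windows, of Abhd5 and Lipc, and in 16.3% of all 32851 windows of the table. GGGCGG was in 8 of the 11 member windows and in 35.7% of all windows, TATAAA in 1 and in 13.6%, CCAAT in 4 and in 37.4%, and CACGTG in 2, of Lipe and Mgll, and in 7.15%. A match is a run of letters and not a shown binding site, and LXR elements outside these short windows were not searched.

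Of 16 genes for partners of the plasma lipases, 15 were measured, and their median log2 ratio was -0.11. At 2-fold 0 were higher and 0 lower, which for a list this short is near the 2.70% and 0.700% of all measured genes. The highest was Gpihbp1, the endothelial protein that anchors lipoprotein lipase to the capillary wall, at 1188 in control and 1992 in L-Lpcat3 KO, a log2 ratio of 0.75. Of the lipase maturation factor family, Lmf2 was at 0.50 and Lmf1 at -0.11. Apoc2, the activator of lipoprotein lipase, was at 0.26. The inhibitors Angptl4, Apoc3 and Angptl8 were at -0.16, -0.14 and -0.07. The lowest main ratios were those of the protease gene Pcsk5, at -0.58, and of the proteoglycan gene Sdc1, at -0.45, but their measured probe sets ran up to 0.36 and 0.22.

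Of 15 lipid transfer and HDL genes, 14 were measured, 4 lay above 0, and the median log2 ratio was -0.08. Again 0 passed 2-fold in either direction, near the shares of all measured genes for so short a list. Pctp, a cytosolic carrier of phosphatidylcholine, was at 0.54 and 0.50 on its measured probe sets, from a main signal of 4477 in control to 6498. The lysosomal cholesterol carrier gene Npc2 was at 0.43. Lcat, which esterifies the cholesterol of HDL, had 12543 and 9342, a log2 ratio of -0.43 on its only measured probe set. Lbp, of the same protein family as Pltp, was at -0.23, with 0.10 on its other measured probe set.

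Around the droplet lipases the median log2 ratio was 0.20. Beside 2.70% and 0.700% of all measured genes, 3 of 17 measured genes here were at least 2-fold higher and 0 were lower. They were Cidea (log2 ratio 3.64) and Cidec (2.42), whose proteins enlarge droplets, and Pnpla3 (1.18), a relative of Pnpla2 whose signals were 126 (control) and 285 (L-Lpcat3 KO). Cidea and Cidec are genes of the same panel of the study. Hilpda, another inhibitor of the product of Pnpla2, was at 156 in the control pool and 301 in the L-Lpcat3 KO pool, a log2 ratio of 0.95 that is just short of 2-fold. Among 10 measured relatives of the members, Pnpla3 was again the one above 2-fold and the median was 0.08. For a list this short that count is near the 2.70% of all measured genes. With a pseudocount of 50 in place of the floor Pnpla3 did not reach 2-fold. The lysosomal acid lipase gene Lipa was at 0.20, and Abhd4, the nearest relative of Abhd5, at 0.26. The relatives Pnpla1, Liph, Lipi, Pnliprp1 and Pnliprp2 were below the floor on both arrays.

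Of 11 measured genes for transcriptional regulators of lipid metabolism, 1 was at least 2-fold higher, Pparg, at 468 in control and 1056 in L-Lpcat3 KO, a log2 ratio of 1.17 on a single measured probe set. By its name that probe set may match more than 1 transcript. A count of 1 in a list this short is near the 2.70% of all measured genes. The LXR gene Nr1h3 was at -0.31 and Ppara at 0.05. The lowest were Ppargc1a, at -0.59 on its main probe set and between -0.71 and -0.03 over all 5 measured, and the gene of the carbohydrate sensor ChREBP, Mlxipl, at -0.50. Among other genes known as LXR targets, Abca1 was at -0.27, Abcg1 at 0.30 and Srebf1 at -0.03 on their main probe sets. The part of LXR in the ratios of Lpl and Pltp was not tested.

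Macrophage markers were higher on the same array as Lpl and Pltp, which macrophages also express. All 15 markers were above 0, 8 were at least 2-fold higher, and their median log2 ratio was 1.11. Of all measured genes 2.70% were at least 2-fold higher. The 8 included Lyz2 (log2 ratio 1.86) and the complement genes C1qb (1.62), C1qa (1.54) and C1qc (1.24). The rest of them were the scavenger receptor gene Marco (1.52), Cd68 (1.44), Cd5l (1.17) and Ctss (1.11). The lowest of the 15 was Clec4f (0.49), a marker of Kupffer cells. Other measured probe sets ran down to 0.73 for C1qb and 0.55 for Marco, whose main control signal was 125. Csf1r, at 0.79, had another at 1.16. With median centring 7 markers were at least 2-fold higher, and with averaged probe sets 8 were. The summed signal of all 15 markers was 21729 in the control pool and 45994 in the L-Lpcat3 KO pool. This is a 2.12-fold difference, beside 2.26-fold for Lpl and 2.23-fold for Pltp. Of endothelial markers 3 of 12 were 2-fold higher, beside the same 2.70%: Lyve1 (log2 ratio 1.41), Pecam1 (1.41) and Vwf (1.02). Below 0 were 2, Tie1 (-0.12) and Stab2 (-0.04). Pecam1 was close to the floor in the control pool, at 96.8, and Vwf was at 163 there. Cdh5 was at a log2 ratio of 0.16, Clec4g at 0.31, Kdr at 0.37, Stab1 at 0.40, Tek at 0.53 and Emcn at 0.68. The other measured probe set of Lyve1 was at 0.56, so that 2 of the 12 were 2-fold higher when probe sets were averaged. The median was 0.47, beside 0.53 for Lipg; the list holds Gpihbp1 too. The summed signal was 7831 and 10757. Of 6 adipocyte markers, 2 were measured, with 1 side below the floor each: Adipoq, at 38.9 and 314, was at least 3.63-fold higher; Retn, at 64.4 and 218, was at least 2.52-fold higher; Lep was below the floor on both arrays. The measured ones summed to 103 in the control pool and 533 in the L-Lpcat3 KO pool. Of exocrine pancreas markers, 1 of 6 with a probe set reached the floor, Cel at 54.5 and 91.7. Hepatocyte markers had a median of -0.19, with 14 of 16 below 0, and a summed signal of 404326 (control) and 365076 (L-Lpcat3 KO). The part of these cell types in the ratios of Lpl, Pltp, Lipg and Lipe was not tested.

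**Figure D4:**
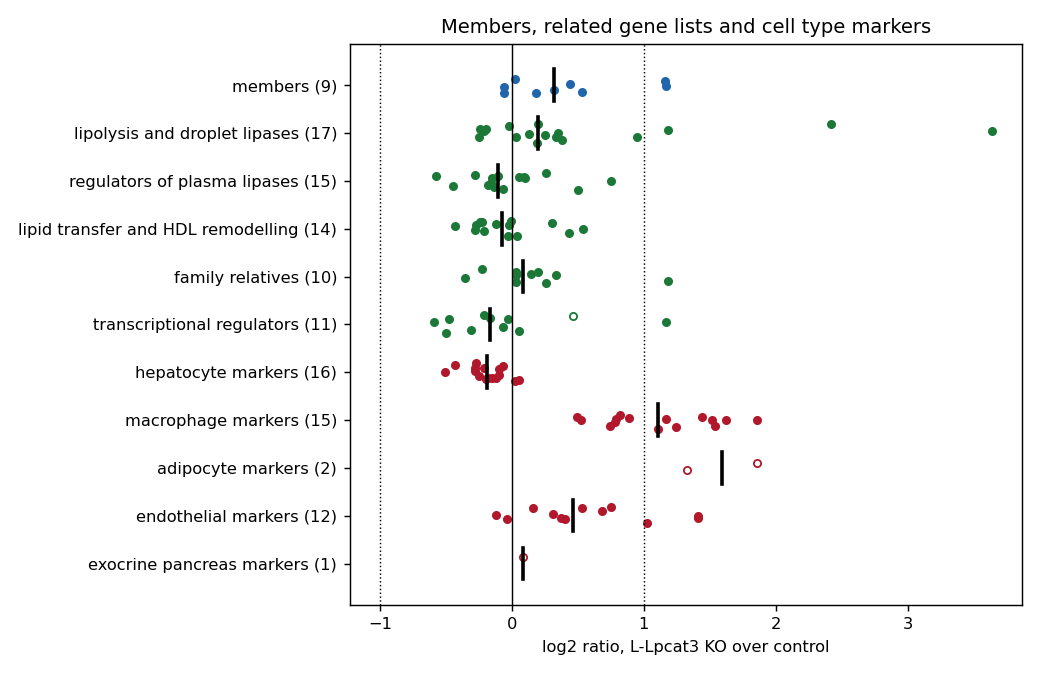
Log2 ratio (L-Lpcat3 KO pool to control pool) for each measured gene of the members (blue), the related lists (green) and the cell type markers (red), with the number measured in brackets; bars are medians, open points had 1 side below the floor and dotted lines mark 2-fold. The lists around the members are centred near 0, and the macrophage markers have a median of 1.11.

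Under the other processing settings the log2 ratio of Lpl ran from 1.06 to 1.30 and that of Pltp from 1.04 to 1.29. Both stayed above 2-fold in each of the 9 settings tried, but not all of these could move them. Other floors or none left Lpl at 1.17 and Pltp at 1.16, since their main signals lie above each floor. Dropping probe sets open to several transcripts left Lpl at 1.17 too. Lipg ran from 0.42 to 0.75, Lipe from 0.28 to 0.44, Abhd5 from 0.20 to 0.34 and Pnpla2 from 0.07 to 0.20. G0s2 (-0.09 to 0.09) and Aadac (-0.17 to 0.03) had no direction that held in all settings, and Mgll lay between -0.17 and 0.00.

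**Figure D5:**
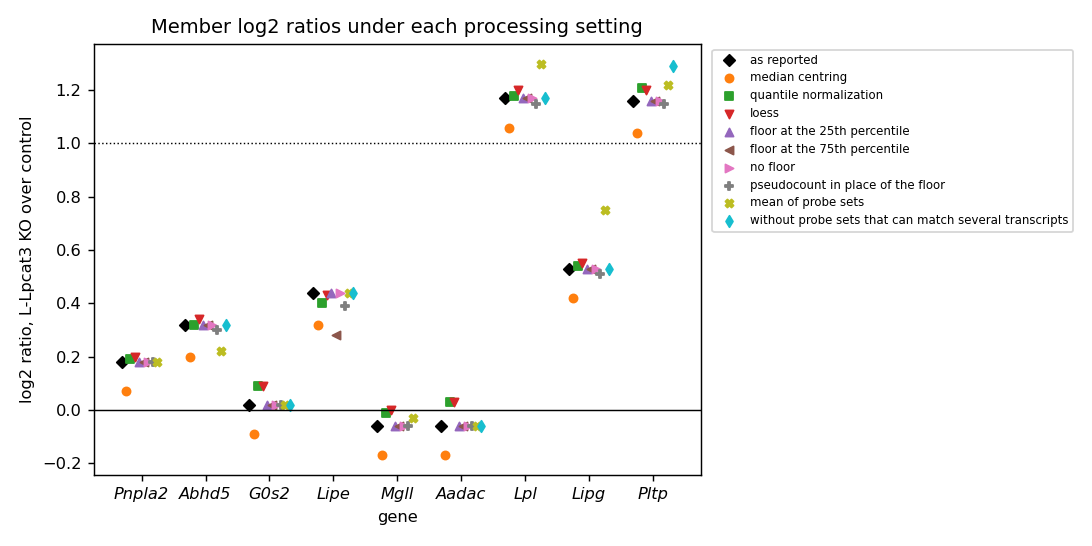
Log2 ratio (L-Lpcat3 KO pool to control pool) of each measured member under the reported processing (black diamonds) and up to 9 alternatives; the dotted line marks 2-fold. Lpl and Pltp stay above the line under each, with the lowest values, 1.06 and 1.04, when arrays were centred on their medians.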

How the data were processed

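Liver RNA of 5 mice was pooled per genotype and hybridised to 1 Affymetrix array each. Per the labels the authors computed signals with MAS5 (submitters' processing notes, no version), and they used GenespringGX per the methods. The deposited values are linear signal intensities for 45101 probe sets; scaling to a common trimmed mean hides a shift shared by most genes, and dim signals are the noisiest. Gene symbols came from the platform annotation and were brought up to date by gene identifier in RefSeq (GRCm38.p6); 34945 probe sets had 1 symbol, 932 several (left out) and 9211 none.

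Values under the median of all values were set to it before log2 ratios were taken per probe set. A gene's brightest probe set (mean log2 signal) stood for it, and calls were made at 2-fold. With 1 pool per genotype no p-value is given. Members and lists were chosen with earlier results of these data known. All members were named; of the lists, genes past 2-fold, the largest ratios and a few others picked after their values were seen. Ratios and counts were tested on simulated data, a copy of the control array with known fold changes put in. This checks the code and not the precision of the ratios or counts. Alternatives were median centring, quantile normalization, loess, other floors, a pseudocount of 50, averaging probe sets, dropping probe sets open to several transcripts, and thresholds of 1.5-fold and 3-fold. The tools were statsmodels 0.14.6 (loess), scipy 1.17.1, numpy 2.4.6 and pandas 2.3.3 in Python 3.11.15, with plots by matplotlib 3.10.9.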

Additional observations from a re-analysis of the deposited data

How the results depend on the processing

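The count of members at least 2-fold higher was 2 under each of the 9 alternatives of scaling, floor and probe set choice, and 0 at a 3-fold threshold. A lower floor or none could not change the ratios of the members, whose measured probe sets all lay above the floor on both arrays. Averaging could not change the ratio of a member with 1 measured probe set. Of 110 values of the members under an alternative, these included, 109 kept within the spread between probe sets of a gene, or within 1.5 times for a count. Of 268 such values of the lists, 9 moved by more; Pnpla3 was under 2-fold with the pseudocount and was not measured with a floor at the 75th percentile, a floor that also left 0 adipocyte and 1 endothelial marker above 2-fold, and Pparg had no measured probe set once those open to several transcripts were dropped. The median of the members ran from 0.20 with median centring to 0.44 without probe sets that can match several transcripts, where Pnpla2 and Mgll had no measured probe set and 7 members were left. The number of all genes called depended on the floor: 332 higher and 86 lower became 1132 and 479 with a floor at the 25th percentile, 88 and 25 at the 75th, and 654 and 242 without a floor. No paired analysis was possible because each genotype had a single pool. Signals near the floor, such as the 189 of the second Lpl probe set in the control pool, are the least precise.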

Other observations

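Values that entered no comparison are those of the 5 member probe sets below the floor on both arrays, which gave no ratio. The signals in control and L-Lpcat3 KO were 34 and 62.3 for the second probe set of Pnpla2, 34.5 and 39 for the third of Abhd5, 64 and 28.2 for the second of Lipe, 20.3 and 14.8 for the fourth of Mgll, and 17.7 and 8.55 for the third of Lipg. At such signals no direction is read from them.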
